A study of Mus musculus with 8 samples.

Results

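The enzymes that build and sulfate glycosaminoglycans were followed in flow-sorted astrocytes of cortical and of subcortical origin, from 4 wild-type (WT) mice at postnatal day 29, 2 females (mice 2 and 3) and 2 males (mice 1 and 4). The members are the 44 genes, of 55417 in the count tables, whose mouse symbol starts with Chst, Ndst, Hs2st, Hs3st, Hs6st, Ext1, Ext2, Extl, Csgalnact, Chsy, Chpf, Xylt, Sulf1 or Sulf2, matched by Ensembl gene identifier. Every mouse gave 1 cortical and 1 subcortical sample, so that 4 cortical libraries were set against 4 subcortical ones. The labels name no treatment and no transgene for any group, and the sources used here do not say which gate or reporter marked the sorted cells.

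Glycosaminoglycans are long sugar chains carried by proteoglycans. A chain is started on a serine of the core protein by a xylosyltransferase and is then extended as heparan sulfate or as chondroitin sulfate by separate polymerases. Sulfotransferases in the Golgi then set sulfate groups at defined positions of the sugars, and these patterns shape which growth factors, guidance cues and receptors a chain can bind. Keratan sulfate, the HNK-1 epitope and some N-glycans receive sulfate from related enzymes of the Chst family. In the brain, astrocytes make both heparan and chondroitin sulfate proteoglycans.

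Total gene counts came to 3537852 to 4060891 per cortical and 2484717 to 3829804 per subcortical library, and the enzyme genes took 0.292 to 0.359% of them in cortical against 0.199 to 0.204% in subcortical libraries. Levels are counts-per-million values (CPM), with library sizes adjusted by the trimmed mean of M-values method (TMM). A 3′ library yields about 1 fragment per transcript end, so these CPM were not divided by transcript length. All 10 astrocyte markers were detected, and they summed to 25691 to 28489 CPM in cortical against 19547 to 20812 CPM in subcortical libraries. They went both ways, with 3 called higher, among them Slc1a3 and Slc1a2, and 2 lower, Aqp4 and Slc4a4. Markers of the oligodendrocyte lineage summed to 1068 to 1498 CPM in cortical against 2501 to 6016 CPM in subcortical libraries, and 7 of the 9 tested were called lower. Microglial markers summed to 173 to 379 CPM in cortical against 128 to 212 CPM in subcortical libraries, with 3 of 9 tested called higher. Neuronal markers summed to 169 to 265 CPM in cortical against 147 to 213 CPM in subcortical libraries, with Slc17a7 called higher and Nefl lower. Ependymal markers summed to 61.7 to 102 CPM in cortical against 102 to 118 CPM in subcortical libraries, with Foxj1 called lower. Mural and fibroblast markers summed to 476 to 1034 CPM in cortical against 352 to 1250.0 CPM in subcortical libraries, with 0 of 6 tested called. Endothelial markers summed to 4.22 to 8.34 CPM in cortical against 3.06 to 17.5 CPM in subcortical libraries, with only 1 tested and not called. Lum, Tek and Cdh5 were at 0. The part of these other cells in the results was not tested.

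Of the 44 enzyme genes, 39 had at least 1 count and 27 had counts in all 8 libraries. A filter on low counts left 29 for the test. Between the regions, 3 of the 29 were higher in cortical astrocytes (Chst2, Chsy1 and Chst1) and 3 lower (Extl1, Sulf2 and Chst8), by edgeR's quasi-likelihood test with Benjamini-Hochberg adjustment over all tested genes at 0.05. That is 10.3% in each direction, where 6.81% of all 11781 tested genes were called, 3.42% higher and 3.39% lower. An unadjusted p under 0.05 by edgeR was reached by 9 of the 29 and by 17.4% of all tested genes. All 4 cortical libraries stood above all 4 subcortical ones for 3 of the 29 (6.54% of all tested genes), the 3 called ones. They stood below for 5 (5.64% of all tested genes), which are the 3 called genes and, without a call, Ext1, which overlapped on raw library sizes, and Chst12. The median log2 fold change, cortical minus subcortical, was -0.08 over the 29 genes and -0.01 over all tested genes. With the mouse as a block the same 6 genes were called, and 7.51% of all tested genes. On raw library sizes the median of all tested genes shifted to 0.19 and all calls split into 682 higher and 244 lower, in place of 403 and 399, while 3 enzyme genes were called higher and 2 lower.

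**Figure D1:**
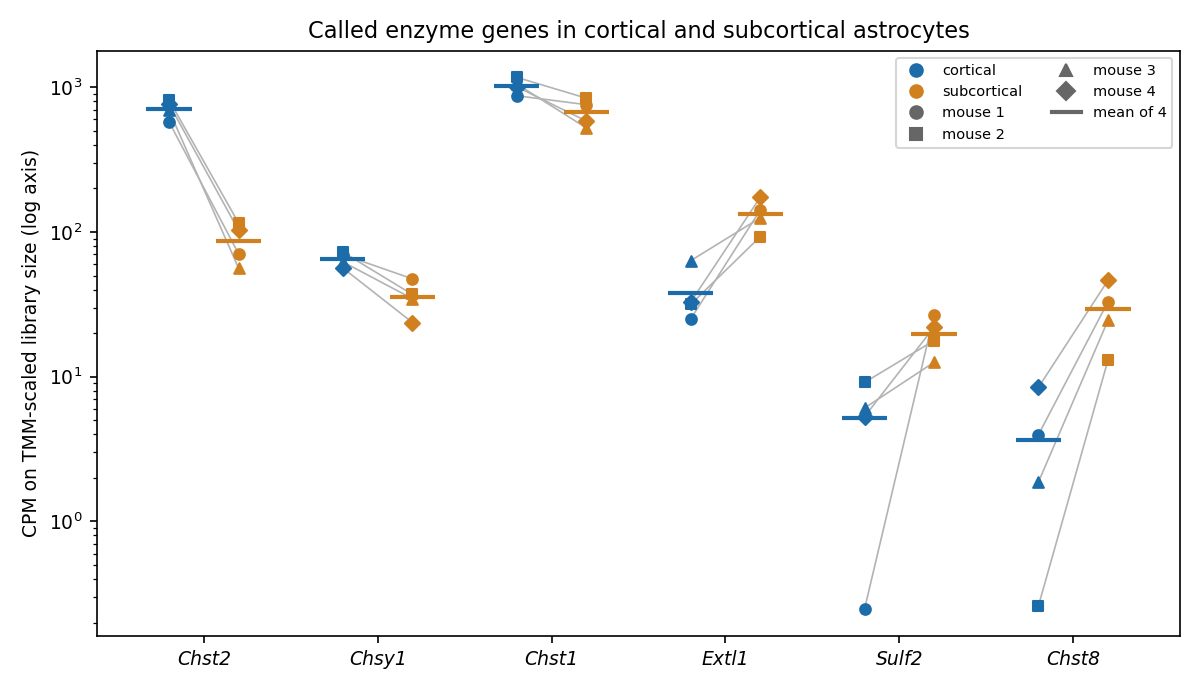
Levels of the 6 called enzyme genes in CPM (log axis), cortical libraries in blue on the left and subcortical libraries in orange on the right of each gene. Symbols give the mouse, grey lines join the samples of 1 mouse and bars are means of 4 libraries; all 4 lines run the same way for each of these genes.

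The widest gap lay among the sulfotransferases of keratan sulfate, N-glycans and HNK-1. Chst2, whose enzyme adds sulfate to carbon 6 of N-acetylglucosamine, had 577, 816, 692 and 766 CPM in the cortical libraries of mice 1 to 4, against 70.7, 115, 56.3 and 103 CPM in the subcortical libraries of the same mice. The ranges are far apart, with no subcortical library near a cortical one. Its log2 fold change was 3.05 (SE 0.22), an 8.27-fold higher level in cortical astrocytes (95% interval 6.06 to 11.3, edgeR adjusted p = 2.4e-09), and the call held without any single library.

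Chst1, the keratan sulfate galactose 6-sulfotransferase gene, had 873, 1170.1, 1053 and 1005 CPM in cortical libraries, against 757, 840.03, 523 and 584 CPM in subcortical ones. All cortical values lay above all subcortical ones, but cortical 1 was close to subcortical 2. The 1.52-fold higher level (log2 fold change 0.60, SE 0.17, edgeR adjusted p = 0.033) was no longer called without cortical 2 or 3, or without subcortical 3 or 4 (edgeR adjusted p of 0.089 to 0.111). Chst1 and Chst2 had closer levels in cortical cells: the ratio of Chst2 to Chst1 within a library was 0.69 ± 0.05 in cortical and 0.13 ± 0.04 in subcortical libraries (SD, n = 4 each).

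Chst8 went the other way. It encodes a sulfotransferase that acts on carbon 4 of N-acetylgalactosamine in N-glycans, as on those of pituitary hormones. Its level was 3.97, 0.26, 1.87 and 8.43 CPM in cortical libraries, against 32.9, 12.98, 24.5 and 46.2 CPM in subcortical ones. Mouse 4 had the highest and mouse 2 the lowest value in both regions, and the regions did not overlap. The difference (log2 fold change -2.99, SE 0.58, edgeR adjusted p = 0.0018) rests on 60 cortical and 342 subcortical counts, and the call held without any single library. Its size depends on single libraries. The log2 fold change was -3.81 without cortical 4, the highest cortical library, and -2.62 without cortical 2, which had 1 count. It also depends on the tool, with -3.59 by limma-voom.

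Chst10, which forms the HNK-1 epitope on cell adhesion molecules, had 214, 273, 301 and 201 CPM in cortical libraries, against 270.1, 283, 207 and 221 CPM in subcortical ones. The groups overlapped throughout, and the 95% interval of the log2 fold change, -0.35 to 0.38, lies within a 2-fold difference either way. The remaining genes of this step, Chst4, Chst5 and Chst9, had 0 counts in all 8 libraries. A count of 0 allows up to 0.70 to 0.78 CPM in a cortical and 0.84 to 1.44 CPM in a subcortical library, by a floor of 3 counts.

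**Figure D2:**
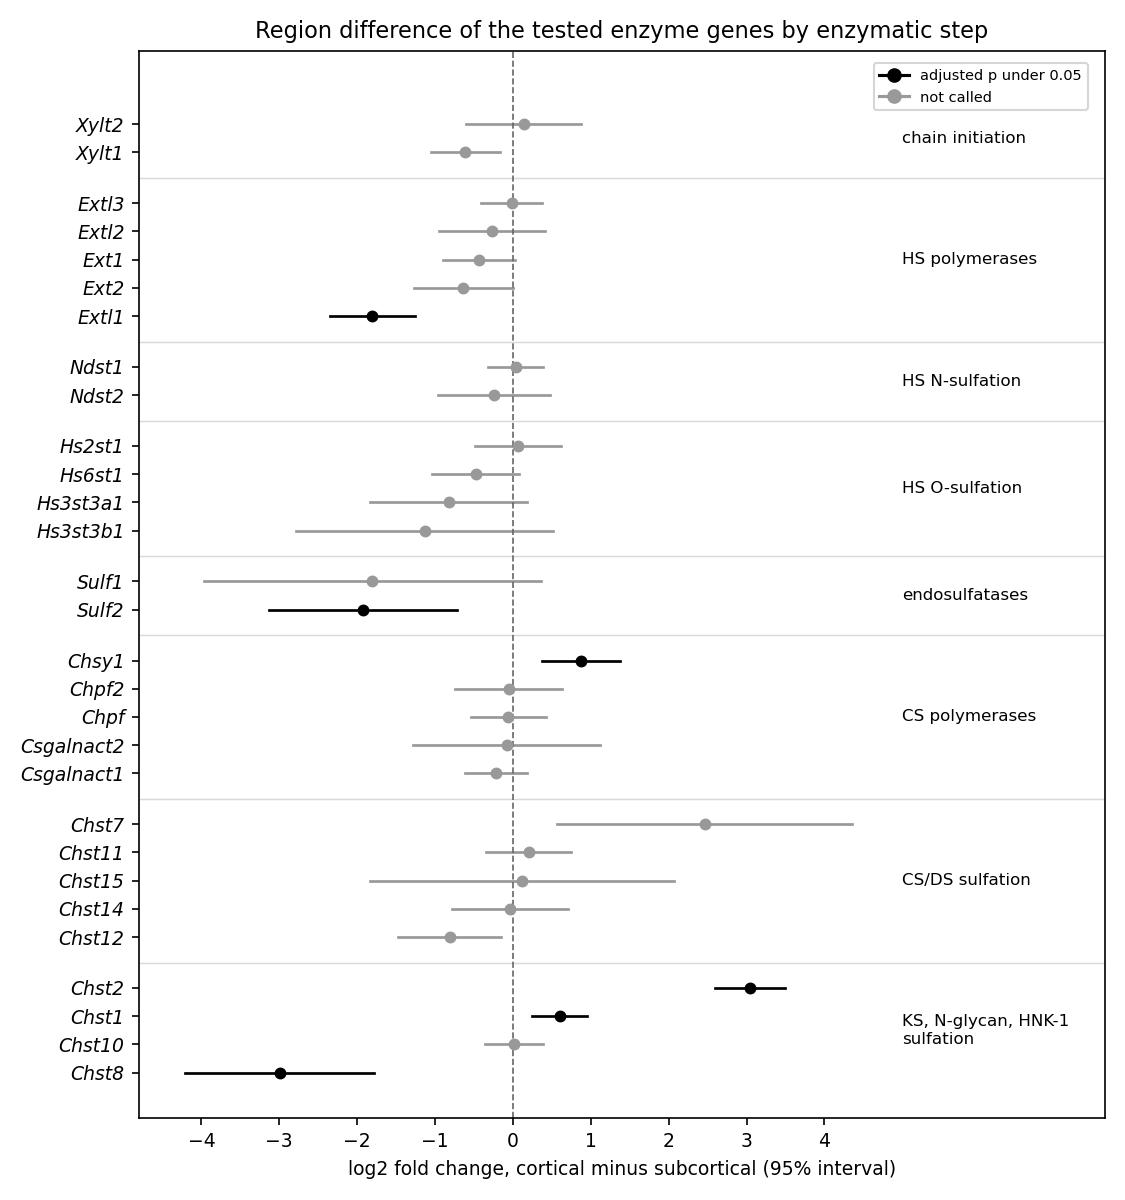
Log2 fold change of the 29 tested enzyme genes, cortical minus subcortical, with 95% intervals and grouped by enzymatic step (HS, heparan sulfate; CS, chondroitin sulfate; DS, dermatan sulfate; KS, keratan sulfate). Black points have an edgeR adjusted p under 0.05; Chst2 lies at 3.05 and Chst8 at -2.99, and 13 of the 23 genes not called have intervals within a 2-fold difference either way.

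RefSeq promoter windows (GRCm38.p6, 250 bases before to 50 after the start) were at hand for 34 of the 44 genes, in 41 windows. Those of Chst2 and Chst1, higher in cortical cells, and of Extl1 and Chst8, lower, are shown 5′ to 3′, since these genes differed between the regions. The counts themselves were made on GRCm39. Capitals mark matches on either strand to a GC box (GGGCGG) or a CCAAT box.
Chst2, chr9:95407221-95407520, minus strand: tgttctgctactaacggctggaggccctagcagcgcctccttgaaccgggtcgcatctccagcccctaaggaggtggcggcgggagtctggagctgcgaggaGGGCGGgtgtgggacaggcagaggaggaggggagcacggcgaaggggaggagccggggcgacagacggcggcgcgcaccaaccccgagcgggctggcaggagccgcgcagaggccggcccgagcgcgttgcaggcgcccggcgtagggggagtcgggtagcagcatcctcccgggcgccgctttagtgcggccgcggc
Chst1, chr2:92600867-92601166, plus strand: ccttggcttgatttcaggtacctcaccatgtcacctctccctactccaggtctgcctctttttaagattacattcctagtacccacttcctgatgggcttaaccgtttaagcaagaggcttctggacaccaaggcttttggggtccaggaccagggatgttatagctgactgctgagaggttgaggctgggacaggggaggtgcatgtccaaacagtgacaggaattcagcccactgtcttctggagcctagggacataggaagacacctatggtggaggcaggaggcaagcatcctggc
Extl1, chr4:134372498-134372797, minus strand: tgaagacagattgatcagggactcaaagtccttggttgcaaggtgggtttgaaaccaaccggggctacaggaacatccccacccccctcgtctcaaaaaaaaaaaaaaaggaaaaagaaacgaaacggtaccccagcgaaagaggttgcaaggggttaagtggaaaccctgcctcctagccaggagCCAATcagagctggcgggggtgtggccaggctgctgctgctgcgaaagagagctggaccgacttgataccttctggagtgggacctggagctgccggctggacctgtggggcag
Chst8, chr7:34812662-34812961, minus strand: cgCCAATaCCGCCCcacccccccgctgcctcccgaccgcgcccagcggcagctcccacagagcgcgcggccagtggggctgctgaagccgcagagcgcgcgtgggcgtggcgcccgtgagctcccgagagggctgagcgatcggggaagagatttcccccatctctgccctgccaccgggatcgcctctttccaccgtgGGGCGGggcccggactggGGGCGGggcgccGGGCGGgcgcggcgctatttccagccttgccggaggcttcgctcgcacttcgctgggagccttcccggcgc

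The windows of Chst2 and Chst8, which differed in opposite directions, were both rich in CpG. They had 73.0% and 75.0% G and C, 34 and 38 CpG dinucleotides, and 1 and 4 GC boxes. The Chst1 window had 52.7% G and C, 1 CpG and none of the motifs searched, and that of Extl1 had 55.3%, 9 CpG and a CCAAT box 64 bases before the start. A GC box lay in 26 of the 41 windows of enzyme genes, against 35.7% of all 32851 RefSeq windows, and a CCAAT box in 18 of 41, against 37.4%. Enzyme gene windows had a median of 65.0% G and C, against 52.7% over all windows. Also searched on both strands were a LIM-homeodomain core (TAATTA, found in a window of Ndst3 and in 5.29% of all windows), a full cAMP response element (TGACGTCA, in the windows of Chpf, Hs3st2 and Hs3st3a1 and in 1.79% of all) and a TATA box (TATAAA, in those of Hs6st2 and Sulf2 and in 13.6% of all). Paired NFI half-sites (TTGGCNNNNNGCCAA) were in 0 of the 41 windows and in 0.0365% of all.

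Among the polymerases of heparan sulfate, 1 of 5 was called. Extl1, whose product can add N-acetylglucosamine to a growing heparan sulfate chain, had 25.1, 31.5, 63.3 and 32.8 CPM in cortical libraries, against 141, 92.7, 125 and 173 CPM in subcortical ones. Cortical 3 was the highest cortical library and still lay below every subcortical one. The log2 fold change was -1.80 (SE 0.26, 95% interval -2.35 to -1.25, edgeR adjusted p = 8.4e-05), and the call held without any single library.

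Extl3, which starts heparan sulfate on the linkage region, had 76.7, 110.5, 96.5 and 109 CPM in cortical libraries, against 89.05, 110.05, 110.4 and 87.2 CPM in subcortical ones. The groups overlapped, with a 95% interval of the log2 fold change of -0.41 to 0.38. The ratio of Extl1 to Extl3 within a library was 0.39 ± 0.18 in cortical and 1.39 ± 0.50 in subcortical libraries (SD, n = 4 each).

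Ext1 and Ext2 form the polymerase complex itself. Ext1 had 44.4, 37.3, 45.1 and 38.3 CPM in cortical libraries, against 47.9, 60.6, 63.3 and 51.5 CPM in subcortical ones. The values did not overlap, but the log2 fold change of -0.43 (SE 0.22) was not called (edgeR adjusted p = 0.328). Ext2 averaged 19.9 ± 5.1 CPM over cortical against 30.8 ± 8.4 CPM over subcortical libraries (SD, n = 4 each; log2 fold change -0.64, edgeR adjusted p = 0.288). Extl2, which can cap the linkage region and so stop a chain, averaged 39.3 ± 21.2 CPM over cortical against 47.4 ± 11.1 CPM over subcortical libraries (SD, n = 4 each). All 5 estimates of this step were negative, but that of Extl3 was positive on raw library sizes (0.18). Summed over the step, the level was 194 to 270.4 CPM in cortical against 338 to 408 CPM in subcortical libraries. Without Extl1 the sums overlapped, at 169 to 239 CPM in cortical against 206 to 248 CPM in subcortical libraries. The sums with Extl1 also overlapped on raw library sizes, at 221 to 285.4 CPM in cortical against 282.9 to 391 CPM in subcortical libraries. Mouse 2 then had the higher value in the cortical library.

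Chain initiation is shared by heparan and chondroitin sulfate. Xylt1, a xylosyltransferase gene, had 57.8, 86.3, 49.5 and 53.2 CPM in cortical libraries, against 107, 95.2, 76.9 and 98.6 CPM in subcortical ones. In each of the 4 mice the cortical value was the lower (3 of 4 on raw library sizes), while cortical 2 lay within the subcortical range. The log2 fold change, -0.61 (SE 0.21), missed the threshold (edgeR adjusted p = 0.099). It passed without cortical 2 (edgeR adjusted p = 0.028) and with all libraries thinned to the same total (0.039). It did not pass with any other single library left out (edgeR adjusted p of 0.077 to 0.269). Nor did it on raw library sizes (log2 fold change -0.40, edgeR adjusted p = 0.334). Xylt2 averaged 20.5 ± 4.3 CPM over cortical against 18.7 ± 8.8 CPM over subcortical libraries (SD, n = 4 each).

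The N-deacetylase N-sulfotransferases, whose products open heparan sulfate to later sulfation, had no called gene among the 2 tested (0 at an unadjusted p under 0.05 by edgeR, 0 called by DESeq2 or limma-voom). Ndst1 averaged 167 ± 25 CPM over cortical against 163 ± 17 CPM over subcortical libraries (SD, n = 4 each), a log2 fold change of 0.04 with a 95% interval of -0.32 to 0.39. Ndst2 averaged 16.7 ± 5.6 CPM over cortical against 19.9 ± 2.8 CPM over subcortical libraries (SD, n = 4 each), so that Ndst1 was the more abundant transcript in both regions.

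Of the 4 tested O-sulfotransferases of heparan sulfate 0 were called by edgeR, DESeq2 or limma-voom, and 0 had an unadjusted p under 0.05. Hs2st1, which acts on uronic acids, averaged 40.8 ± 8.9 CPM over cortical against 38.8 ± 11.3 CPM over subcortical libraries (SD, n = 4 each). Hs6st1, which sulfates carbon 6 of glucosamine, averaged 27.7 ± 7.1 CPM over cortical against 38.6 ± 6.6 CPM over subcortical libraries (SD, n = 4 each; log2 fold change -0.48, edgeR adjusted p = 0.399). The genes of 3-O-sulfation, a rare modification, are known for binding sites such as that of antithrombin. Hs3st3a1 averaged 8.57 ± 4.93 CPM over cortical against 15.2 ± 5.8 CPM over subcortical libraries, and Hs3st3b1 2.52 ± 0.82 against 5.61 ± 3.72 CPM (SD, n = 4 each). Their 95% intervals, -1.84 to 0.19 and -2.79 to 0.52 on the log2 scale, do not exclude a large difference. These paralogs encode near-identical catalytic domains, and whether reads were split correctly between them was not tested.

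The extracellular endosulfatases remove 6-O-sulfates from finished heparan sulfate and so change its binding of growth factors at the cell surface. Sulf2 had 0.25, 9.12, 6.07 and 5.30 CPM in cortical libraries, against 26.6, 17.8, 12.6 and 22.01 CPM in subcortical ones. The groups did not overlap, and cortical 1, with 1 count, lay far below the other cortical libraries. Its log2 fold change was -1.92 (SE 0.58, 95% interval -3.13 to -0.72, edgeR adjusted p = 0.049). It was no longer called without cortical 1, 3 or 4, without subcortical 1, 2 or 4 (edgeR adjusted p of 0.052 to 0.165), on raw library sizes (0.068) or with all libraries thinned to the same total (0.072), and limma-voom gave a log2 fold change of -2.55.

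Sulf1, the other endosulfatase gene, had 0, 3.65, 0 and 3.37 CPM in cortical libraries, against 10.8, 5.29, 6.29 and 2.51 CPM in subcortical ones. The groups overlapped, and Sulf1 was not called (log2 fold change -1.80, SE 1.04, edgeR adjusted p = 0.417). Markers of the oligodendrocyte lineage summed to 6016, 3450, 3200 and 2501 CPM in the subcortical libraries of mice 1 to 4. Sulf2 and Sulf1 were both highest in subcortical 1. In subcortical 4, Sulf2 was the next highest and Sulf1 the lowest among the subcortical libraries. The part of these cells in the result was not tested.

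**Figure D3:**
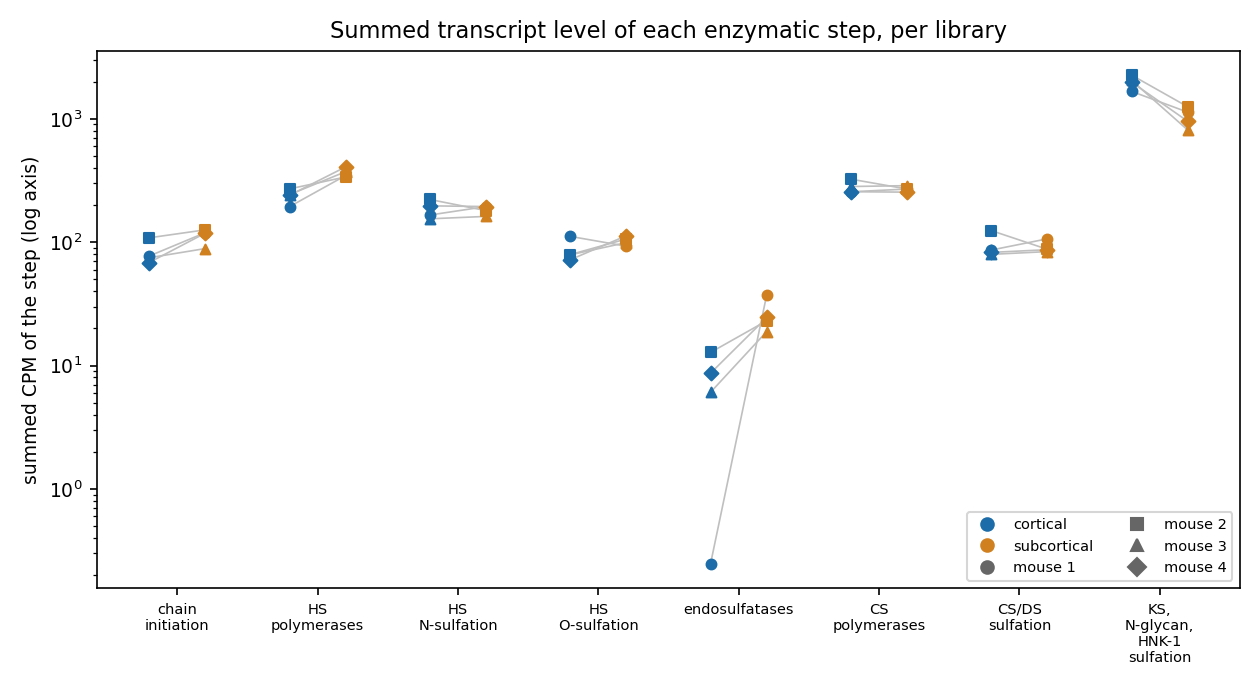
Summed CPM of all members of each enzymatic step (log axis), with cortical libraries in blue on the left, subcortical libraries in orange on the right and lines joining the samples of 1 mouse. The sum for keratan sulfate, N-glycan and HNK-1 sulfation was higher in the cortical sample of all 4 mice, at 1668 to 2259 against 810.4 to 1251 CPM in subcortical samples, while the sums for chondroitin sulfate polymerases overlapped, at 256 to 324 CPM in cortical against 254 to 287 CPM in subcortical samples.

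Chondroitin sulfate polymerases had 1 of 5 tested members called. Chsy1, a chondroitin synthase gene, had 69.7, 72.5, 62.1 and 56.4 CPM in cortical libraries, against 47.4, 37.0, 34.6 and 23.7 CPM in subcortical ones, with no overlap. It was 1.83-fold higher in cortical cells (log2 fold change 0.88, SE 0.24, edgeR adjusted p = 0.028). Without cortical 1, 2 or 3, or subcortical 3 or 4, it was not called (edgeR adjusted p of 0.061 to 0.100). Mouse 2 was highest among the cortical and mouse 1 among the subcortical libraries, and mouse 4 was lowest in both.

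The partners that polymerise chondroitin together with the synthases were not called. Chpf had 63.3, 113, 115 and 62.9 CPM in cortical libraries, against 112, 79.3, 105 and 72.2 CPM in subcortical ones, and the higher region varied from mouse to mouse. Chpf2 averaged 26.5 ± 8.1 CPM over cortical against 27.4 ± 11.5 CPM over subcortical libraries (SD, n = 4 each). Csgalnact1, which commits the linkage region to chondroitin sulfate by adding the first N-acetylgalactosamine, had 79.6, 101, 83.2 and 104 CPM in cortical libraries, against 84.1, 133, 95.4 and 116 CPM in subcortical ones. It was lower on the cortical side in 4 of 4 mice (3 of 4 on raw library sizes), with overlapping groups and no call (log2 fold change -0.22, edgeR adjusted p = 0.649). The ratio of Chsy1 to Csgalnact1 was 0.72 ± 0.14 in cortical and 0.35 ± 0.16 in subcortical libraries (SD, n = 4 each). Csgalnact2, the lesser homologue at 7.24 ± 1.33 CPM over cortical against 7.55 ± 4.33 CPM over subcortical libraries (SD, n = 4 each), has a 95% interval of -1.28 to 1.12 on the log2 scale.

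Of the 5 tested sulfotransferases of chondroitin and dermatan sulfate 0 were called by edgeR or limma-voom, 2 had an unadjusted p under 0.05 and DESeq2 called 1. Chst11, a chondroitin 4-O-sulfotransferase gene, averaged 49.1 ± 17.7 CPM over cortical against 42.6 ± 7.2 CPM over subcortical libraries (SD, n = 4 each). Chst12, another 4-O-sulfotransferase gene, had 10.4, 14.9, 14.2 and 14.5 CPM in cortical libraries, against 26.2, 22.6, 25.2 and 20.9 CPM in subcortical ones. The values did not overlap, and the log2 fold change of -0.81 (SE 0.32) missed the threshold (edgeR adjusted p = 0.162).

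Chst7, which adds 6-O-sulfate, had 12.4, 2.87, 14.0 and 3.85 CPM in cortical libraries, against 1.66, 3.36, 0 and 1.11 CPM in subcortical ones. Cortical 1 and 3 were high, and cortical 4 was near the subcortical range. Cortical 2 lay within that range and below the subcortical library of the same mouse. By raw library sizes, all 4 cortical values lay above all 4 subcortical ones. Its log2 fold change of 2.46 (SE 0.91) was not called by edgeR (adjusted p = 0.127) and was called by DESeq2 (adjusted p = 0.040). Chst14, which acts on dermatan sulfate, averaged 17.4 ± 6.9 CPM over cortical against 17.8 ± 3.3 CPM over subcortical libraries (SD, n = 4 each). Chst15, which adds a second sulfate to N-acetylgalactosamine 4-sulfate, averaged 3.64 ± 2.92 CPM over cortical against 3.38 ± 2.25 CPM over subcortical libraries (SD, n = 4 each). Chst3, the other chondroitin 6-O-sulfotransferase gene, was below the filter, with 20 cortical and 24 subcortical counts.

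Among the 10 genes with counts that were below the filter, several took their counts from single libraries. Ndst4 had 16 counts, all in cortical 4, Hs3st4 had 24 of its 26 there, Hs3st2 had 11 of its 12 and Chsy3 had 6 of its 11. Slc17a7, a marker of excitatory neurons, was also highest in cortical 4, at 30.8 CPM, although the sum of all neuronal markers was higher in cortical 3 (265 CPM) than in cortical 4 (256 CPM). Hs3st1 had 47 counts over 5 libraries, Hs3st6 had 29 over 4 and Hs6st2 had 24 over 4, while Hs3st5 and Ndst3 had 2 each. Chst13 and Hs6st3 were, with Chst4, Chst5 and Chst9, the 5 genes at 0 in every library, so that their expression was not detectable at this depth.

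Summed over all 44 genes, the level was 2559 to 3400.0 CPM in cortical against 1923 to 2381 CPM in subcortical libraries. Chst1 and Chst2 made up the greater part of the cortical sum. Both were called higher in cortical libraries, so taking them out lowers the cortical sum more, and the order that remains is no separate result. Without them the sums overlapped, at 1109 to 1414 CPM in cortical against 1344 to 1470.1 CPM in subcortical libraries, and the cortical sum was the lower one in all 4 mice. On raw library sizes this did not hold: the sums without Chst1 and Chst2 were then 1264, 1493, 1293 and 1160.3 CPM in cortical libraries, against 1304, 1194, 1409.7 and 1374 CPM in subcortical ones, and mouse 2 had the higher value in the cortical library. In bulk samples fewer cells of a type and less RNA per cell cannot be told apart.

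**Figure D4:**
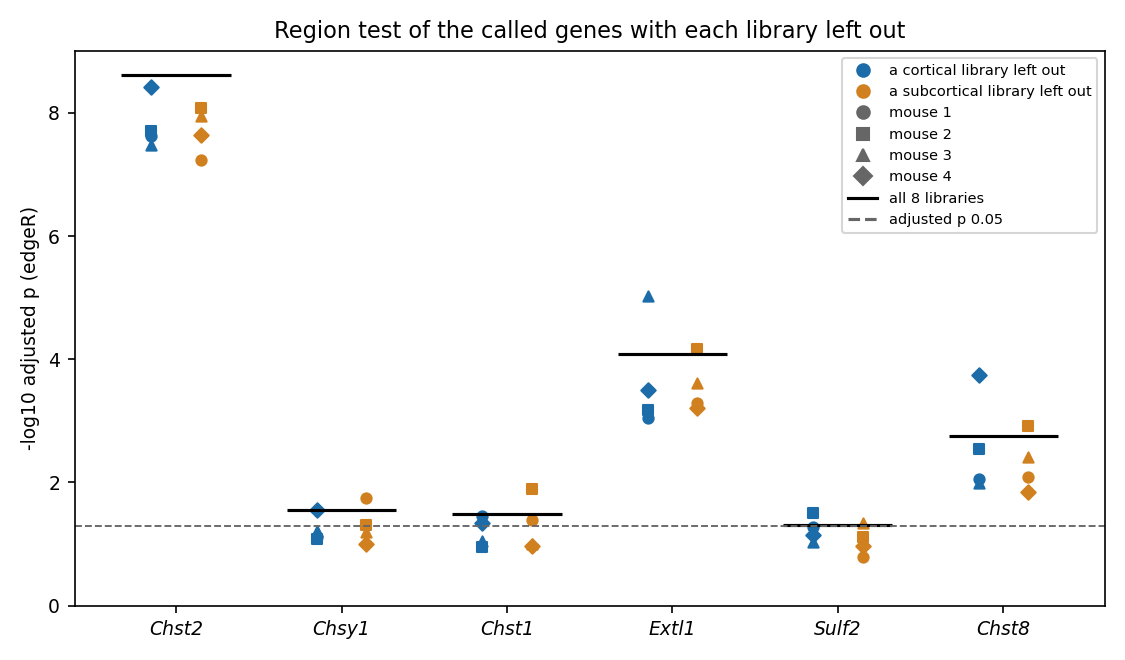
Negative log10 of the edgeR adjusted p for the 6 called genes with 1 cortical library (blue) or 1 subcortical library (orange) left out; symbols give the mouse, black bars the value with all 8 libraries and the dashed line an adjusted p of 0.05. Chst2, Extl1 and Chst8 stay above the line in all 8 cases, Chst1 in 4, Chsy1 in 3 and Sulf2 in 2.

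Few other genes of the pathway were called. Of 5 linkage region enzymes, 8 genes for sugar and sulfate donors and 3 for hyaluronan turnover, edgeR and DESeq2 called 0. By edgeR 0 of them had an unadjusted p under 0.05. Intervals of the log2 fold change lay within a 2-fold difference either way for 7 of the 8 donor genes. This held for 0 of the 5 linkage region enzymes and 0 of the 3 hyaluronan genes. For the linkage region and hyaluronan genes the missing calls therefore do not exclude larger differences. Papss1, which makes the sulfate donor used by all the sulfotransferases, averaged 60.6 ± 21.5 CPM over cortical against 62.1 ± 16.4 CPM over subcortical libraries, and its homologue Papss2 41.7 ± 3.8 against 35.95 ± 2.29 CPM (SD, n = 4 each). Of 2 tested uronic acid modifiers, Dsel and Ust, edgeR and DESeq2 called 0 and 1 had an unadjusted p under 0.05. Of 4 further enzymes of keratan sulfate and HNK-1 edgeR called 0, 1 had an unadjusted p under 0.05 and DESeq2 called 1, B3gat2, which adds the glucuronic acid of HNK-1 (log2 fold change 2.33, SE 0.84, edgeR adjusted p = 0.113). Of 12 tested genes for breakdown 1 was called, which is 8.33%, near the 6.81% of all tested genes. This was Arsk, a lysosomal glucuronate 2-sulfatase gene, lower at 42.1 ± 6.3 CPM over cortical against 71.3 ± 16.8 CPM over subcortical libraries (SD, n = 4 each, edgeR adjusted p = 0.047). Arsk was not called without cortical 1, 2 or 3, without subcortical 1, 2 or 4 (edgeR adjusted p of 0.066 to 0.199), on raw library sizes (0.181), with sex as a covariate (0.051) or with all libraries thinned to the same total (0.078).

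The core proteins carry the chains. Called were 27.3% of the tested heparan sulfate and 28.6% of the tested chondroitin sulfate core protein genes, against 6.81% of all tested genes. Of 11 tested heparan sulfate core protein genes 1 was higher, the glypican gene Gpc6 (51.7 ± 14.6 CPM over cortical against 18.7 ± 9.2 CPM over subcortical libraries; SD, n = 4 each), and 2 were lower, the syndecan genes Sdc3 and Sdc4. Sdc3 averaged 71.4 ± 10.3 CPM over cortical against 237 ± 35 CPM over subcortical libraries (SD, n = 4 each, edgeR adjusted p = 7.8e-07). Sdc4, at 188.1 ± 67.02 against 342 ± 58 CPM (SD, n = 4 each, edgeR adjusted p = 0.013), was not called without cortical 1 (0.058). Of 7 tested chondroitin sulfate core protein genes 2 were higher, the neuroglycan gene Cspg5 at 1706 ± 262 CPM over cortical against 455 ± 59 CPM over subcortical libraries, and the versican gene Vcan at 23.9 ± 9.5 against 6.78 ± 4.25 CPM (SD, n = 4 each). Vcan was not called without cortical 4 (edgeR adjusted p = 0.090).

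The series' title names female mice, so the sexes were compared on counts summed per mouse, 2 females against 2 males. Of the 31 enzyme genes tested there edgeR and DESeq2 called 0, and over all genes edgeR called 0.0373%. An unadjusted p under 0.05 by edgeR was reached by 2 of the 31, Chst8 and Chpf, and by 3.73% of all tested genes. Chst8 had 4.78 and 11.1 CPM in the female mice 2 and 3, against 14.9 and 26.1 CPM in the male mice 1 and 4 (log2 fold change, female minus male, -1.36, 95% interval -2.40 to -0.33, edgeR adjusted p = 0.999). Chpf had 102 and 112 CPM in the females, against 82.5 and 67.6 CPM in the males (log2 fold change 0.52, 95% interval 0.05 to 0.98, edgeR adjusted p = 0.999). Chst2 and Chst1 had log2 fold changes of 0.26 and 0.21, female minus male, with intervals that include 0.

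In the test of whether the region difference depends on sex, 0 of 29 enzyme genes were called by edgeR and 0 by DESeq2, and 0% of all genes were called. Of all tested genes 3.42% had an unadjusted p under 0.05 by edgeR, and of the 29 enzyme genes 1. That gene was Extl1, whose means in females were 47.4 CPM in the cortical against 109 CPM in the subcortical libraries, and in males 28.9 CPM in the cortical against 157 CPM in the subcortical libraries. The difference of its log2 fold changes, female minus male, was 1.25 (95% interval 0.26 to 2.23, edgeR adjusted p = 0.9999). With 2 mice of each sex such intervals are wide, and a missed threshold does not show that the sexes are alike.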

How the data were processed

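The data are 8 RNA libraries, 4 cortical and 4 subcortical, of 4 mice. Per the labels' protocols, thawed astrocyte lysates went through a column kit (RNeasy Plus Micro) and into forward QuantSeq 3′ libraries. According to the submitters' processing notes, FastQC 0.11.5, STAR 2.6.0, HTSeq 0.9.0, DESeq2 1.35.0 and the build GRCm39 were used; the notes give no settings, and use of strand or molecular identifiers is likewise not given in the sources used here. Overlapping and antisense genes are therefore uncertain. The counts per gene that the authors deposited, whole numbers, were used unchanged. The 5 summary rows of HTSeq stayed out of all totals; no-feature reads were 30.2 to 40.7% and ambiguous reads 0.384 to 0.548% of gene, no-feature and ambiguous reads together. The 8 columns of a normalized table were not used. Symbols were found for 52083 of 55417 gene identifiers.

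Region was tested with edgeR 4.0.16 (R 4.3.3) after filterByExpr (10 counts, adjusted for library size, in 4 libraries, and 15 overall), with TMM factors, quasi-likelihood tests and Benjamini-Hochberg adjustment at 0.05 over 11781 genes. Region was the only term of this fit, so its p-values, SE and intervals are not paired by mouse. SE is the log2 fold change over the root of F. Sex was tested on counts summed per mouse, and its dependence on region in 1 fit of the 4 sex and region means, without a mouse term. The fits were tested on simulated data. Floors of 3 counts cover counting error only. The mouse numbers pair the samples, since by the labels both samples of a number are of 1 animal. Deviations from region means had correlations of 0.025 to 0.066 for the same mouse and -0.093 to 0.052 for different mice. These ranges overlap, so the correlations cannot decide the pairing, which rests on the labels. Libraries of a group differed beyond sampling noise, with chi-square values of 11.7 to 23.7 per degree of freedom.

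Alternatives were DESeq2 1.42.0, limma-voom (limma 3.58.1), other scalings and filters, the sex or the mouse as a term, stricter thresholds and each library left out. Thinning to the smallest total, sums on raw library sizes and sums without Extl1 or without Chst1 and Chst2 were chosen after seeing the data. All enzyme genes are accounted for, called genes and their counterparts per library, and from each other list at most 4 genes with the smallest p are named. Papss1, Papss2 and the genes given per library without a call (Ext1, Xylt1, Chst12, Chst7) were chosen after their values were seen. The enzyme genes and lists were chosen with earlier results of these data known. The within-library ratios each hold a called gene, so their gap between the regions is no separate result. Promoter sequences are from RefSeq, matched by symbol.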

Additional observations from a re-analysis of the deposited data

Results flagged for a closer look

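Within groups of 4 libraries, 58 combinations of a tested enzyme gene and a region were screened for a library that stands apart (Dixon's test at 95%), and 2 passed; chance flags about 1 in 20, or 5%. Chst12 had 10.4 CPM in cortical 1, against 14.2 to 14.9 CPM in the other cortical libraries. Chst11 had 53.3 CPM in subcortical 1, against 38.0 to 40.2 CPM in the other subcortical libraries.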

How the results depend on the processing

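By region 802 genes were called, and 477 at an adjusted p under 0.01, 333 against a fold of 1.5 and 614 to 775 without single libraries. Of the enzyme genes 3 were higher and 3 lower. The higher count was 1 (Chst2) at an adjusted p under 0.01 and against a fold of 1.5, and 1 to 3 without single libraries: 1 without cortical 2 or 3 or subcortical 3 or 4. DESeq2 called 4. The lower count was 2 to 4 without single libraries and 2 or 3 under the other alternatives. Among single enzyme genes, 23 calls were lost over all alternatives, by Chst1, Chsy1 and Sulf2, and 3 were gained, by Chst7 with DESeq2 and by Xylt1 without cortical 2 and after thinning; none changed direction while called. With the mouse as a replicate block 885 genes were called, with 3 enzyme genes higher and 3 lower, the same as without the block. The counts of 0 for sex and for its dependence on region stayed at 0 under each alternative run. On raw library sizes the mean summed level of chondroitin sulfate polymerases was 251 CPM in subcortical libraries, in place of 270.2 CPM. In cortical libraries it was 299 CPM, in place of 280 CPM. Chst7, Chst15, Hs3st3b1 and Sulf1 were not tested under a filter of 5 CPM.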
